A study of Mus musculus with 17 samples.

Results

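Loops of 10 genes of the Notch pathway were followed in H3K27ac HiChIP of differentiating mouse embryonic stem cells. The genes are the ligands Dll1, Dll3, Dll4 and Jag1, the receptors Notch1 and Notch2, and Hes1, Hes5, Hes6 and Hey1, which encode transcription factors of the HES and HEY families. HiChIP joins proximity ligation with immunoprecipitation, so each read pair links a pair of genome segments (anchors) of which at least one carried acetylated histone H3 lysine 27, a mark of active promoters and enhancers. A loop was taken as a member if one of its anchors lay within 5 kb of an annotated start site of one of these genes on mm9. This rule, which uses no measured value beyond a loop having been listed, gave 905 loops of 1211657 in all. They held 1628 read pairs in the bulk libraries and 926 in the libraries of sorted cells, and 566 of the 905 loops rested on 1 read pair.

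Notch signalling acts between neighbouring cells. A ligand of the Delta or Jagged family on one cell binds a Notch receptor on the next, the receptor is cut by an ADAM protease and then by gamma-secretase, and its released intracellular domain joins the DNA-binding protein RBPJ and a Mastermind coactivator at target genes. Hes1, Hes5 and Hey1 are textbook targets, and their products are bHLH repressors that hold back proneural genes such as the neurogenins in the developing nervous system. Notch signalling is also known for its part in the choice between endoderm and other lineages and in vessels, where Dll4 is a leading ligand.

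All libraries came from R1 mouse embryonic stem cells that formed embryoid bodies in hanging drops and then grew in medium with 0.5 uM retinoic acid, collected at day 4 (RA-day 4). The 12 bulk libraries were made from unsorted cells. The 5 other libraries were made from cells positive for both surface proteins EpCAM and CD38, here called DP cells, which the sample titles name cluster2; unsorted cells still include them. The study collected DP cells in 5 independent sorts, and the labels do not say whether each library is 1 sort or 1 culture, so that p-values measure the spread between these libraries, which may be technical. Bulk libraries held 65148 to 241068 loop read pairs and DP libraries 50508 to 118179. The loops of bulk and DP cells rest on anchor sets of unequal size, with 216073 and 15082 joined anchors, of which 15074 occur in both.

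Markers were checked on the same scale. Of 10 genes of endoderm or of the sort, 5 were called higher in DP libraries and 0 lower, beside 20.6% and 42.8% of all tested genes. The 5 were Gata4, Foxa2, Krt8, Krt18 and Col4a1. The summed level of the list was 1522 to 1894 normalized CPM (read pairs scaled to a common library total) in DP against 287 to 714 in bulk libraries. Epcam and Cd38 themselves did not pass the test (adjusted p = 0.107 and 0.195, edgeR). Sox17, Lama1 and Gata6 were not called either, with log2 fold changes of DP over bulk of -0.57, -0.41 and 0.02. With only loops whose anchors occur in both groups, 8 of the 10 were called higher and 0 lower, beside 25.7% and 10% of all genes. Sox17 (4.01), Lama1 (1.67) and Cd38 (1.86) were then among the 8, and Epcam (0.35) and Gata6 (1.20) were not called. Of 12 neural genes 10 could be tested, 8 were called lower and 0 higher, and Neurog2 (-0.40) and Tubb3 (-0.52) were not called. The summed level of the neural list was 94.4 to 197 CPM in DP against 1008 to 1718 in bulk libraries. With anchors of both groups only, 6 of 8 tested neural genes were called lower and 0 higher. At Sox3 no read pair was found in either group. These lists moved with the contrast of every result below, and their part in those results was not tested. A bulk value cannot separate fewer cells of a type from fewer contacts per cell.

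Read pairs at Hes1 were higher in DP cells than in bulk by a wide margin, and those at Dll4 were higher too. Read pairs at Jag1, Hes6, Notch1, Dll1, Hes5 and Hey1 were called lower with the main normalization, whereas Dll3 and Notch2 were not called. The counts were summed per gene, normalized with TMM and tested with edgeR over all 14115 genes with enough read pairs. Over all genes, 20.6% were called higher and 42.8% lower, beside 2 and 6 of the 10 members. The median log2 fold change was -1.24 over the members and -0.52 over all genes, so that the whole table leaned to lower values too. With TMM, every DP library lay above every bulk library for 1 member (Hes1), beside 7.22% of all genes, and below every bulk library for 4 (Dll1, Jag1, Notch1 and Hes6), beside 14.9% of all genes.

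The direction against zero depends on the scaling. With the total of each library in place of TMM, the median gene stood at 1.21 on the log2 scale, 55.3% of genes were called higher and 26.2% lower. Hes1, Dll4 and Dll3 were then the 3 members called higher, with all DP libraries above all bulk libraries (36.4% of all genes did so by library size), and Jag1 and Hes6 the 2 called lower. By library size 0 members had all DP libraries below all bulk libraries, beside 8.93% of all genes. Taken relative to the median gene, the members' log2 fold changes hardly moved between the scalings, from 1.90 to 1.96 for Hes1 and from -1.04 to -1.03 for Dll1. The distance from the median gene is therefore given below beside the main value. Values of other settings are against zero unless stated. A further setting kept loops whose anchors occur in both groups, which lifts the median gene to 0.42 and calls 25.7% of genes higher and 10% lower. Of the 9 members tested there, 1 was called higher (Hes1) and 5 lower (Dll1, Dll3, Jag1, Notch1 and Hes5).

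**Figure D1:**
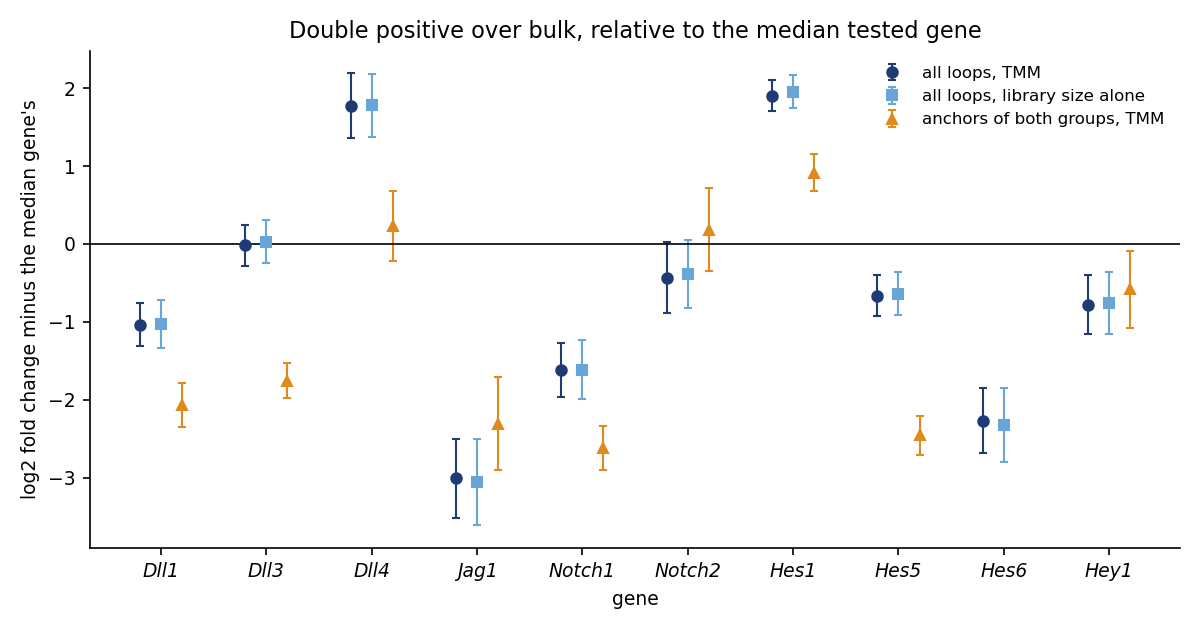
Fold change (log2) of DP over bulk libraries minus the median of all tested genes, for each of the 10 genes (x axis), with bars of 1 SE. Circles are all loops with TMM, squares are all loops scaled by library size alone, and triangles are loops with both anchors used in both groups. Hes1 and Dll4 stand above the median gene in all 3 settings, Dll4 by 0.23 on the shared anchors. Jag1, Notch1, Dll1, Hes5 and Hey1 stand below it in all 3. Hes6 could not be tested on the shared anchors.

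Each library also divides its member read pairs over the 10 genes, which needs no scaling between libraries. Hes1 took 40.5 to 50.6% of these read pairs in the 5 DP libraries (median 46.0%) and 6.90 to 19.2% in the 12 bulk libraries (median 13.5%). No other member had all DP libraries above the bulk range. Jag1 took 0 to 1.19% in DP against 1.52 to 15.5% in bulk libraries and Hes6 0.422 to 1.59% against 2.74 to 13.5%, and for these genes the groups did not overlap. Dll4 took 4.03 to 7.37% in DP libraries and 0 to 4.11% in bulk libraries, with ranges that touch. Dll3 shares lay within the bulk range, at 17.3 to 21.8% in DP and 9.45 to 32.8% in bulk libraries. The shares of a library add up to a fixed whole, so a larger Hes1 share leaves less for every other member. Whether the ranges of another member overlap can therefore not be told apart from the Hes1 part. These shares were chosen after the counts were known and are given as a description.

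**Figure D2:**
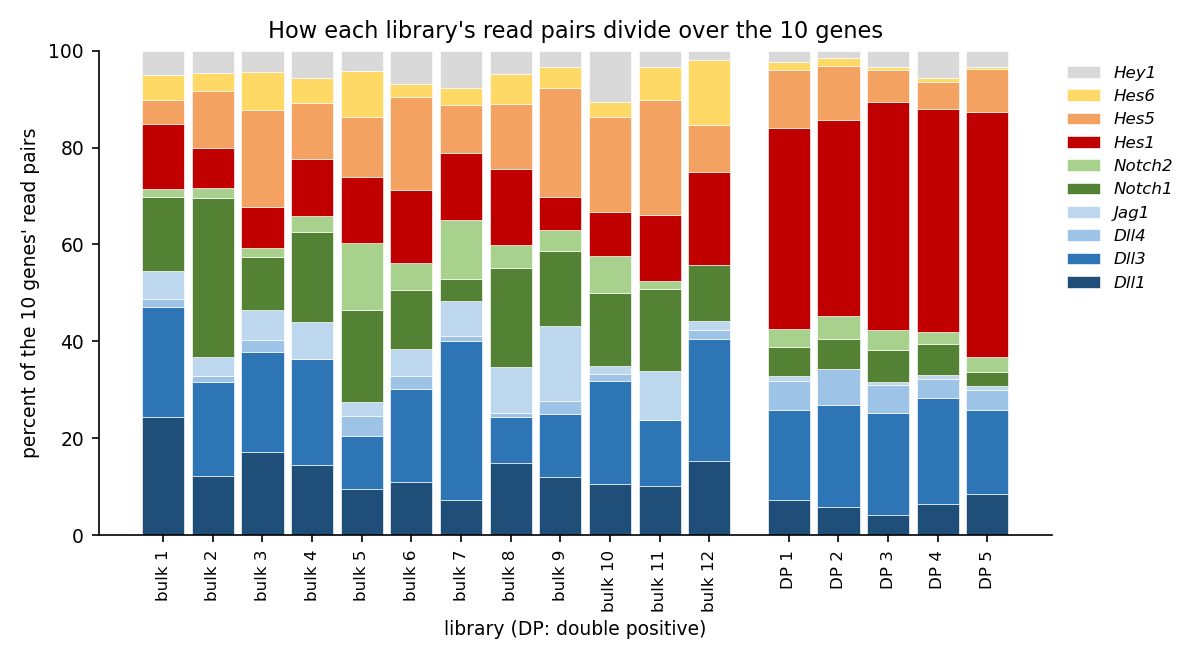
Percent of the 10 genes' loop read pairs (y axis) that falls to each gene in each of the 12 bulk and 5 DP libraries (x axis, 1 bar a library). The Hes1 part fills 40.5 to 50.6% of the DP bars and 6.90 to 19.2% of the bulk bars.

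The ligand genes did not move as a group. Dll1, a ligand for lateral inhibition and somite formation, lies on chromosome 17 (15504318-15513836, minus strand), and its start site is inside the anchor 15507720-15514600. It had 18, 11, 5, 8 and 20 read pairs in DP replicates 1 to 5, and 6 to 42 (median 13.5) in the bulk libraries. Normalized, this is 60.8 ± 15.8 CPM (SD, n = 5) against 178 ± 68.4 (SD, n = 12), and all 5 DP libraries were below the lowest bulk library, which by library size they were not. The log2 fold change was -1.55 ± 0.28 (SE, adjusted p = 1.14e-05, edgeR), or -1.04 relative to the median gene, but 0.19 and not called by library size alone. On shared anchors it was -1.65 and called. Its strongest loop in both groups joined the start site to an anchor at 15517097-15519673, spanning 7225 bp, with 21 bulk and 11 DP read pairs.

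Dll3, a divergent ligand of the presomitic mesoderm and of neural progenitors that acts inside the cell, was the member with the most read pairs in bulk. DP libraries had 47, 40, 26, 27 and 41 read pairs and bulk libraries 8 to 67 (median 14.5). The normalized levels, 191 ± 19.8 CPM (SD, n = 5) in DP and 267 ± 135 (SD, n = 12) in bulk libraries, overlapped, and the log2 fold change of -0.54 ± 0.26 (SE) was not called (adjusted p = 0.0728, edgeR). The sum joins anchors with different balances of bulk and DP read pairs. The anchor over the start site on chromosome 7 (29085854-29088105), which also serves Timm50, a neighbour that encodes a mitochondrial import subunit, had 219 bulk and 62 DP read pairs. An anchor at the 3′ end of the gene (29073153-29076996), near the start of a non-coding transcript of Dll3 and near BC089491, had 75 bulk and 85 DP read pairs. These are pooled raw counts, out of 1616066 bulk and 409248 DP read pairs in all, and the anchors were not tested apart. With the start sites of protein-coding transcripts alone, Dll3 was called lower, at -1.17 (adjusted p = 0.000475, edgeR). A call was also made on shared anchors (-1.33), with the narrower window of 2.5 kb (-1.25) and with replicates 1 to 5 alone (-0.65), whereas by library size alone Dll3 was called higher at 1.25. Relative to the median gene Dll3 stood at -0.02 with TMM, 0.03 by library size and -1.75 on shared anchors.

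Dll4, the ligand best known from vessels, has a wide anchor over its start site (chromosome 2, 119147098-119157450). Its read pairs were few in bulk, 0 to 5 (median 2), and were 15, 14, 7, 5 and 10 in the DP libraries. The means were 51.7 ± 11.9 CPM (SD, n = 5) in DP and 21.4 ± 13.5 (SD, n = 12) in bulk libraries, and 3 of the 5 DP libraries were above all bulk libraries. On the log2 scale the fold change was 1.26 ± 0.41 (SE, adjusted p = 0.00818, edgeR), 1.78 above the median gene. The call was lost on shared anchors (0.65, adjusted p = 0.258) and after thinning to the smallest library (0.98, adjusted p = 0.142). The DP loops reached start sites of other genes with 39 of 51 read pairs, and the bulk loops with 12 of 24. Such a higher DP share was seen at every member but Hes1. The most DP read pairs went to Ino80, a chromatin remodelling ATPase 151 kb downstream, at 8 DP and 0 bulk read pairs. In bulk the most frequent partner was the start site of Vps18, with 5 bulk and 1 DP read pairs. None of the Dll4 loops had enough read pairs for a test.

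Jag1, the Jagged ligand of many epithelia and vessels, showed the lowest DP level of the ligands. The DP libraries had 3, 0, 1, 1 and 2 read pairs at the gene and the bulk libraries 1 to 18 (median 9.5). This gave 6.98 ± 4.11 CPM (SD, n = 5) against 88.3 ± 53.4 (SD, n = 12), with no overlap of the groups, though by library size the DP libraries reached 25.4 CPM and the lowest bulk library had 13.1 CPM. Jag1 had a log2 fold change of -3.53 ± 0.51 (SE, adjusted p = 3.85e-07, edgeR), or -3.01 relative to the median gene, and Jag1 was called lower by library size alone (-1.85) and on shared anchors (-1.89) too. Of its 78 loops 5 were seen in DP cells. A loop most seen in DP cells ran within the gene (136916771-136919809 with the start site anchor 136939196-136944035), with 2 read pairs in each group, level with a loop to an anchor 225 kb downstream that had the same counts, and the one most seen in bulk reached 827 kb upstream with 4 bulk read pairs and no DP read pair.

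**Figure D3:**
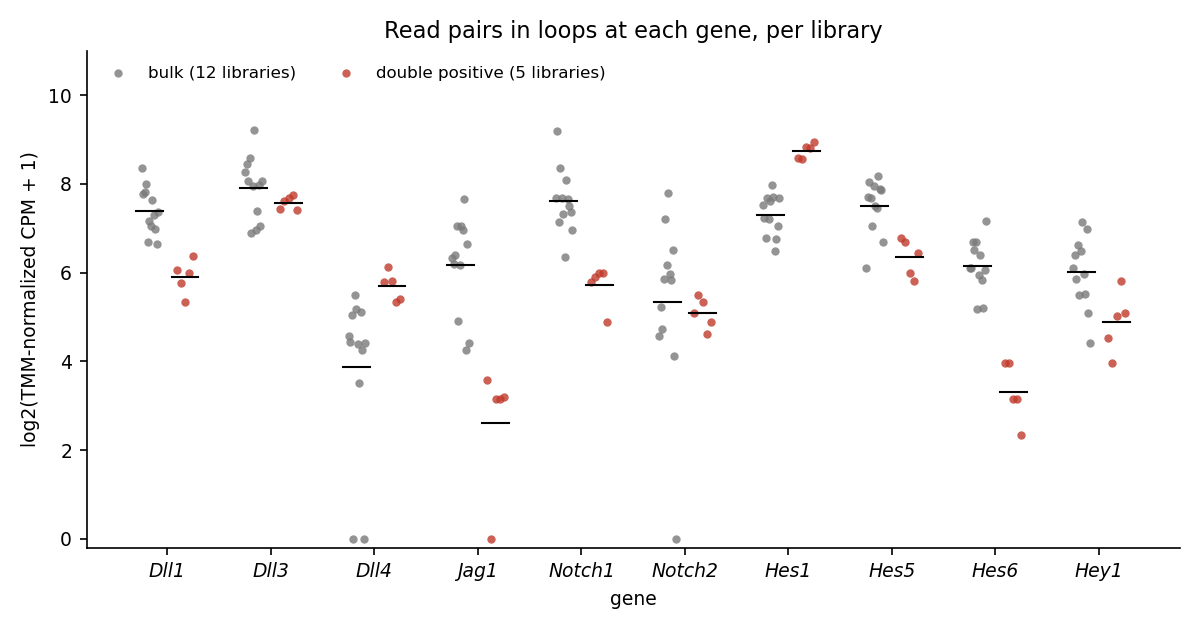
log2(TMM-normalized CPM + 1) of the loop read pairs at each gene (x axis), 1 point a library and a line at the mean of the logs, grey for 12 bulk and red for 5 DP libraries. The DP points of Hes1 lie above all bulk points, and those of Dll1, Jag1, Notch1 and Hes6 below them.

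The receptor genes gave few DP read pairs. Notch1, the receptor of most developing tissues, spans 26313423-26372183 on the minus strand of chromosome 2. It has 13 annotated start sites, and distances here are from the most upstream coding one (26372183). That site lies in no anchor. The anchor nearest to it, 3821 bp away at 26376004-26378524, held 25 bulk read pairs and no DP read pair. All 50 DP read pairs came from the anchor 26355398-26360574, near other annotated start sites of the gene, which had 250 bulk read pairs. Which start site is in use in these cells was not tested. DP libraries had 15, 12, 8, 8 and 7 read pairs and bulk libraries 6 to 113 (median 16). Normalized levels were 53.6 ± 14.3 CPM (SD, n = 5) and 220 ± 132 (SD, n = 12), with all DP libraries below the bulk range, which by library size they were not. The log2 fold change was -2.14 ± 0.35 (SE, adjusted p = 2.96e-06, edgeR), or -1.62 relative to the median gene, and -2.20 on shared anchors, but it was -0.40 and not called by library size alone.

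Bulk replicate 2 stood out at Notch1, with 113 read pairs where the next bulk library had 40. It held 38.4% of the gene's bulk read pairs and 14.9% of the bulk depth, spread over 59 loops of at most 12 read pairs. Leaving it out gave Notch1 a log2 fold change of -1.84, which was still called. The 2 Notch1 loops that were tested joined the anchor 26355398-26360574 to other parts of the gene body. The loop with 26340589-26344903 had 46 bulk and 6 DP read pairs (log2 fold change -3.08 ± 0.53, SE, adjusted p = 7.95e-08, edgeR), and the loop with 26347820-26349854 had 25 bulk and 0 DP read pairs (adjusted p = 7.29e-08). The second partner occurs in no DP loop, so the DP count of that loop could only be 0 and its p-value adds no support. Whether the anchor was called in the DP libraries was not tested. Of the DP read pairs of Notch1, 80.0% led to start sites of other genes, against 29.9% in bulk, the most to Sec16a with 8 DP and 5 bulk read pairs. This share was higher in DP than in bulk for every member but Hes1 (4.32 against 5.41%). DP loops rest on fewer anchors, the like share over all loops is not given, and the cause was not tested.

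Notch2, a receptor of liver, kidney and other epithelia, was not called. DP libraries had 9, 9, 5, 3 and 7 read pairs and bulk libraries 0 to 22 (median 5). The levels of 33.7 ± 8.11 CPM (SD, n = 5) and 67.1 ± 62.1 (SD, n = 12) overlapped, and the log2 fold change was -0.95 ± 0.46 (SE, adjusted p = 0.0674, edgeR). It turned to 0.60 on shared anchors and 0.83 by library size alone, neither called. Relative to the median gene Notch2 stood at -0.43 with TMM, -0.38 by library size and 0.18 on shared anchors. Bulk replicate 7 held 30.1% of the bulk read pairs of Notch2 and 10.8% of the bulk depth, and without it the log2 fold change was -0.58. The gene was called lower when bulk replicate 1, 2, 3, 11 or 12 was left out (-1.03 to -1.08) and with the start sites of protein-coding transcripts alone (-1.04, adjusted p = 0.0444, edgeR). The start site anchor on chromosome 3 (97816540-97820411) had 41 bulk and 33 DP read pairs. A second anchor within the gene (97822040-97826415) had 38 bulk and 0 DP read pairs and is among the 10 of 26 member anchors that occur in bulk loops only.

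Hes1 was the member with all DP libraries above all bulk libraries under TMM. It encodes the bHLH repressor through which Notch keeps progenitors undifferentiated, and it lies on chromosome 16 (30064470-30067882, plus strand) with its start site inside the anchor 30062666-30066104. DP libraries had 105, 77, 58, 57 and 120 read pairs, and bulk libraries had 6 to 29 (median 13.5). The normalized levels were 432 ± 50.3 CPM (SD, n = 5) against 165 ± 49.9 (SD, n = 12), and the lowest DP library, at 376 CPM, was above the highest bulk library, at 251 CPM. Its fold change on the log2 scale was 1.38 ± 0.20 (SE, adjusted p = 3.16e-07, edgeR), 1.90 above the median gene. The call was kept in every alternative setting run, at 3.17 by library size alone, 1.34 on shared anchors and 0.63 (adjusted p = 0.0141) on spans of at least 20 kb. Relative to the median gene of each setting these were 1.96, 0.92 and 1.07.

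The Hes1 promoter is shown because the gene had more DP read pairs than any other member, 417 of 926. The 250 bases before its start site (mm9, chr16:30065176-30065425, plus strand), read from the mm9 genome, run 5′ to 3′ as follows, with matches to the RBPJ core TGGGAA on either strand in capitals, and the Hes5 and Dll4 promoters are set beside it (chr4:154334782-154335031 and chr2:119151270-119151519, both plus strand).
Hes1: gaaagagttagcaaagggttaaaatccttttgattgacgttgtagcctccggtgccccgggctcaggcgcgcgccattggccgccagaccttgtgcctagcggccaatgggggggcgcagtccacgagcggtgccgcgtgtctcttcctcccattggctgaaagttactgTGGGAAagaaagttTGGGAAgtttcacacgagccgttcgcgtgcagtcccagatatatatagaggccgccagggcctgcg
Hes5: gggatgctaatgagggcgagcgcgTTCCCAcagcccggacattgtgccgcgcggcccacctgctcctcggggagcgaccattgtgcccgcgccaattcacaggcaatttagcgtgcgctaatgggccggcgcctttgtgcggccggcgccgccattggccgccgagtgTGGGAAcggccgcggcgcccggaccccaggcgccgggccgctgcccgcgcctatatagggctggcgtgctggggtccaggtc
Dll4: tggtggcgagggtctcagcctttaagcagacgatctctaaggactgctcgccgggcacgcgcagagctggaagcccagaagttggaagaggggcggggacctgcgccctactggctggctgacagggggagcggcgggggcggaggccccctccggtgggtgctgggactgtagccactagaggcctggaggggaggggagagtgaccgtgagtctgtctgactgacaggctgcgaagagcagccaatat

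The Hes1 promoter holds 2 matches to TGGGAA, whose first bases lie 80 and 66 bases before the start site, and the Hes5 promoter holds 2, at 226 and 82 bases. Dll4 has none in this window. Over the 10 members 3 promoters hold the core (Hes1, Hes5 and Notch1), beside 21.0% of 22354 protein-coding promoters of the same length. All these windows lie before the most upstream coding start site, which for Notch1 is 1 of 13 annotated start sites. The other motifs searched on both strands, overlaps kept, were the E-box CANNTG (6 of 10 members, 63.3% of all promoters), the N-box CACNAG bound by HES proteins (6 of 10, 35.6% of all promoters, with 3 matches at Hes1) and the nuclear receptor element AGGTCA (1 of 10, Hes6, 12.6% of all promoters). Hes1 and Hes5, which share the core, differed in their read pairs.

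The Hes1 loops of DP cells went mainly upstream. Of 417 DP read pairs, 384 (92.1%) led to intergenic partners (no protein-coding gene), as did 157 of 185 bulk read pairs (84.9%). At Hes1, 5 loops had enough read pairs for a test. The strongest joined the start site to an anchor 18 kb upstream of it from middle to start site. It had 32, 27, 14, 14 and 28 read pairs in the DP libraries and 3 in all bulk libraries together, at most 1 a library. This gave 89.4 ± 11.2 CPM (SD, n = 5) against 2.85 ± 5.84 (SD, n = 12), a log2 fold change of 4.50 ± 0.54 (SE, adjusted p = 1.47e-14, edgeR), 3.72 above the median loop. The next anchor towards the gene, 30050413-30057075, had 15, 13, 8, 8 and 33 DP read pairs and 9 in bulk, at 2.57 ± 0.47 (SE, adjusted p = 3.08e-07).

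Both of these anchors overlap no annotated gene. Farther upstream, the anchor 30007835-30010654 over the lincRNA gene 4632428C04Rik had 41 DP and 3 bulk read pairs (3.08 ± 0.63, SE, adjusted p = 5.21e-06, edgeR), and the anchor 29944716-29948085 over the lincRNA gene Gm16761 had 26 DP and 2 bulk read pairs (2.82 ± 0.72, SE, adjusted p = 0.000302, edgeR). The longest tested loop, spanning 250 kb, had 16 DP and 6 bulk read pairs and was not called (0.95 ± 0.62, SE, adjusted p = 0.175, edgeR), though it was called by library size alone (3.11) and on spans of at least 20 kb (1.38). The loop most frequent in bulk, to the 3′ neighbour anchor 30069038-30072439, had 9 read pairs in each group, level in bulk with the loop to 30050413-30057075. The called loops reached the minimum of 20 read pairs through their DP read pairs alone, so their folds describe loops that had to be high in DP to be tested.

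The middle 200 bases of the partner over 4632428C04Rik (mm9, chr16:30009145-30009344, plus strand) are shown because this region carries DP contacts, again with TGGGAA matches in capitals.
Partner over 4632428C04Rik: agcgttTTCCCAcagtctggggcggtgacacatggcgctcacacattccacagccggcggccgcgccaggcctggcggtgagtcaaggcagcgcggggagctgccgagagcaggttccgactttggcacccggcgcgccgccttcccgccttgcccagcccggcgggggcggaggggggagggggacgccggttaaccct

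This window holds 1 match to the core, the like window of the partner over Gm16761 (chr16:29946301-29946500) holds 0, and 17% of the middles of 15074 anchors used in both groups hold the core. The window is part of an anchor 2820 bp long, and the data do not place the contact within an anchor. Over the whole anchors the order turns, with 3 matches over 4632428C04Rik and 5 over Gm16761 (3370 bp).

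Within single libraries, the 2 loops from the start site anchor to the near upstream anchors took 37.9 to 51.9% of the Hes1 read pairs in DP libraries (44.8, 51.9, 37.9, 38.6 and 50.8% in replicates 1 to 5). In the bulk libraries they took 0 to 30.0%, with a median of 6.55%, and the highest value came from 3 of 10 read pairs. Pooled, the share was 46.0% of 417 read pairs in DP (95% Clopper-Pearson interval 41.2 to 51.0%) and 6.49% of 185 in bulk libraries (3.40 to 11.1%), intervals that cover counting error only. Read pairs of the same partners with the other Hes1 anchor are not in this share. As these loops were singled out by their counts, no test is given. With them, the median span of the Hes1 read pairs was 23791 bp in DP and 172669 bp in bulk libraries.

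**Figure D4:**
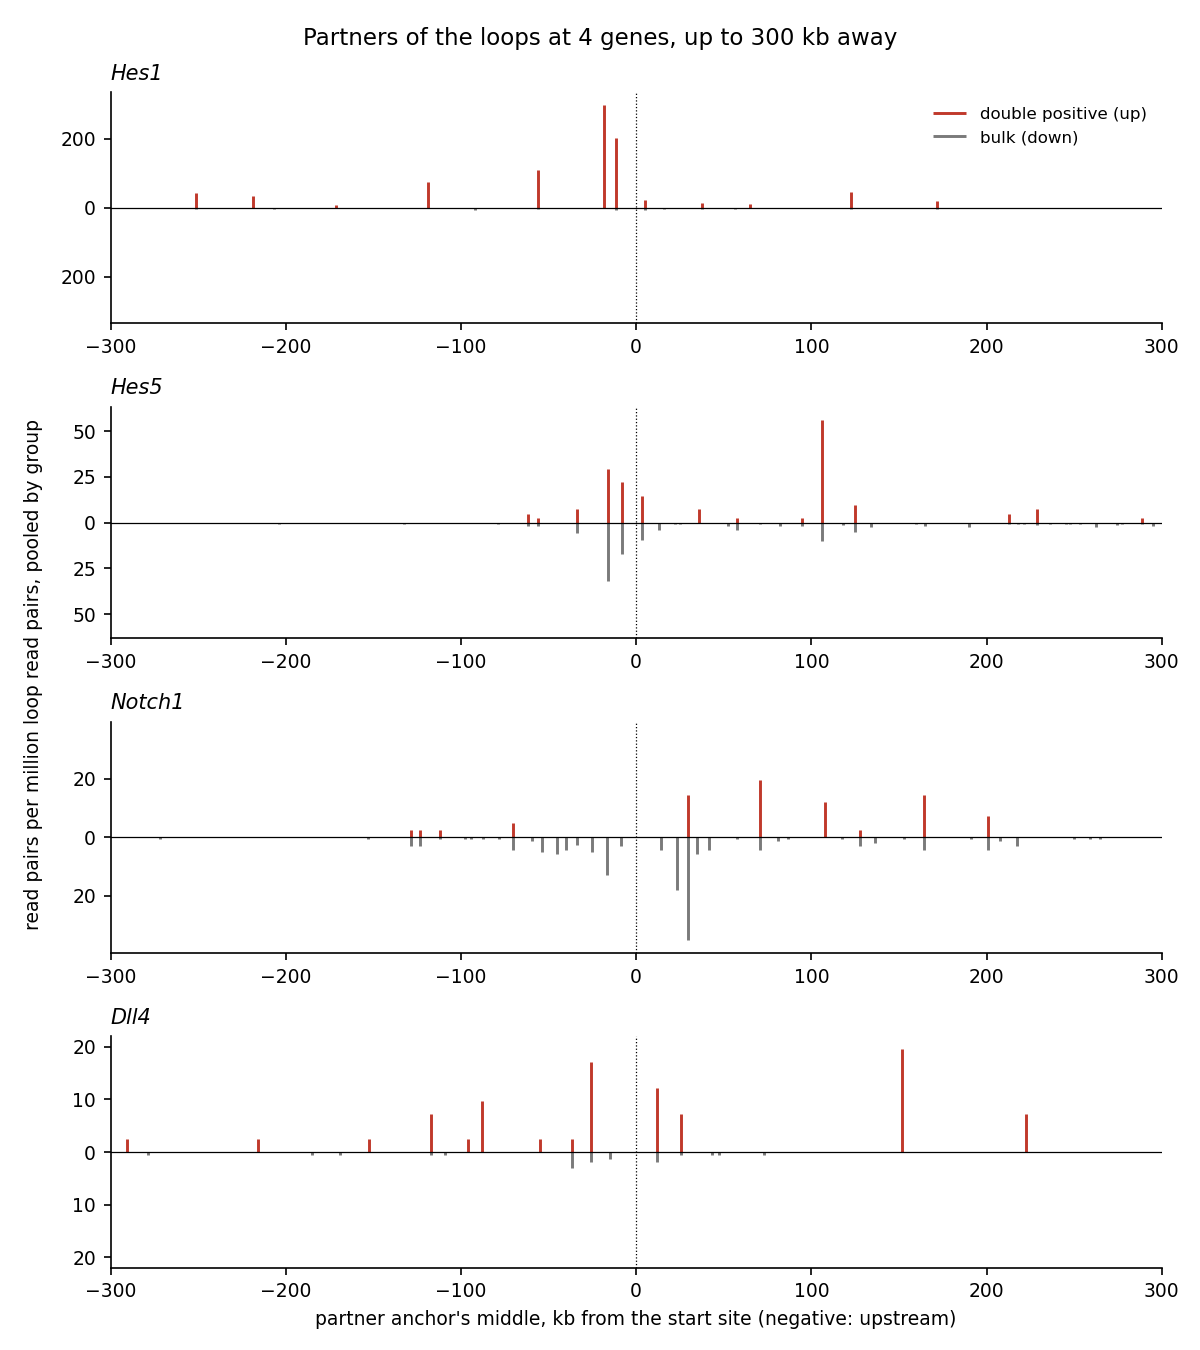
Read pairs in CPM of the loop read pairs by group total, without TMM, pooled by group (y axis, DP upwards in red and bulk downwards in grey, a separate scale for each gene), by the distance of the partner anchor's middle from the most upstream coding start site (x axis, kb, upstream to the left), for Hes1, Hes5, Notch1 and Dll4. The Hes1 panel is led by the DP bars 18 and 12 kb upstream, beside which the bulk bars are barely visible, and the Notch1 panel by the bulk bar 29 kb downstream, inside the gene.

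Hes5, the HES gene of neural progenitors, had 30, 21, 8, 7 and 21 read pairs in the DP and 5 to 41 (median 15.5) in the bulk libraries. Its levels were 83.3 ± 23.8 CPM (SD, n = 5) and 195 ± 66.5 (SD, n = 12), and the lowest bulk library, at 68.2 CPM, lay within the DP range. The log2 fold change was -1.18 ± 0.27 (SE, adjusted p = 0.000212, edgeR), or -0.66 relative to the median gene, and -2.03 on shared anchors, whereas by library size alone it was 0.58 and not called. Its start site anchor on chromosome 4 (154334182-154336352) held 26 bulk and 4 DP read pairs, and the flanking anchor 154337137-154339597, which is also the start site anchor of Pank4, held 112 bulk and 70 DP read pairs, so that the sum cannot be told apart from that of Pank4 there.

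Of 4 tested Hes5 loops 3 were called lower. An anchor 16 kb upstream (154315975-154321568) had 21 bulk and 3 DP read pairs with the nearer flank of the gene (-2.77 ± 0.68, SE, adjusted p = 0.00015, edgeR) and 21 bulk and 8 DP read pairs with the Pank4 side (-1.67 ± 0.59, SE, adjusted p = 0.00934, edgeR). The loop between the flanks had 15 bulk and 6 DP read pairs (-1.53, adjusted p = 0.0259, edgeR), a call lost without bulk replicate 2 and without DP replicates 1, 3, 4 or 5. The loop most seen in DP cells ran 102 kb to the start site of Pex10, a peroxisome biogenesis gene, with 3, 5, 2, 4 and 3 read pairs in DP libraries and 8 in bulk. It was not called (0.69 ± 0.61, SE, adjusted p = 0.320, edgeR), but 5 of its 8 bulk read pairs came from 1 library, and without bulk replicate 2 it was called higher at 1.68.

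Hes6, whose product is known to oppose HES1 and to favour neuronal differentiation, was nearly without DP read pairs. The DP libraries had 4, 3, 1, 1 and 1 and the bulk libraries 2 to 16 (median 6.5), or 9.82 ± 4.65 CPM (SD, n = 5) against 75.8 ± 30.6 (SD, n = 12), and the groups did not overlap. By library size they did, with DP libraries up to 34.9 CPM and bulk libraries from 23.3 CPM. Its log2 fold change was -2.79 ± 0.41 (SE, adjusted p = 6.40e-07, edgeR), or -2.27 relative to the median gene, and -1.11 and still called by library size alone. The bulk read pairs led most often into the neighbour Per2, a clock gene, with 13 read pairs at 93316098-93319529 on chromosome 1, an anchor that no DP loop uses. The DP read pairs led most often to the start site of Ilkap, with 4 DP and 2 bulk read pairs.

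Hey1, a HEY repressor of vessels and heart, had 6, 3, 4, 7 and 8 DP read pairs and 1 to 16 (median 6) in the bulk libraries. Levels were 31.2 ± 15.3 CPM (SD, n = 5) and 72.2 ± 36.6 (SD, n = 12) and overlapped. The log2 fold change of -1.30 ± 0.37 (SE, adjusted p = 0.00282, edgeR), or -0.78 relative to the median gene, was lost on shared anchors (-0.16), after thinning (-0.91) and by library size alone (0.45). Of its DP read pairs 11 of 28 joined an intergenic anchor 98 kb upstream (8760141-8769813 on chromosome 3), which had 4 bulk read pairs.

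In the order of levels by library size, Hes1 led the DP libraries at 1042 ± 137 CPM (SD, n = 5), then came Dll3 at 461 ± 63.3 and Hes5 at 199 ± 51.3, and the ranges of Hes1, Dll3 and Hes5 did not overlap. From Hes5 down to Hey1 at 76.0 ± 39.5 each neighbour's range overlapped the next, and Hes6 (23.6 ± 10.7) and Jag1 (16.8 ± 9.73) came last. In bulk libraries the first 5 were Dll3 (187 ± 90.1, SD, n = 12), Notch1 (158 ± 111), Hes5 (135 ± 47.8), Dll1 (127 ± 57.5) and Hes1 (115 ± 34.0), with overlapping ranges, and Dll4 was last at 14.6 ± 8.94. These sums are not per length and count all anchors of a gene, so an order between genes also follows the number of their anchors, which ran from 1 to 4.

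Members were also set beside their neighbours, the tested genes that start within 5 Mb of them, a view chosen after the values were seen and given with no test. Hes1 stood 2.28 above the median log2 fold change of its 54 neighbours (-0.90), of which 3.70% were called higher. Jag1 and Hey1 lay among genes that were lower still, with medians of -4.63 over 24 neighbours and -3.93 over 17, so that both stood above their surroundings, by 1.10 and 2.63. Hes6 stood at -1.75 relative to its 77 neighbours on chromosome 1. Dll3 lay among genes that rose, 61.9% of its 197 neighbours being called higher with a median of 1.03, and stood at -1.57 relative to them. Notch1, Notch2, Dll1 and Hes5 stood at -2.09, -1.21, -1.09 and -0.85 and Dll4 at 1.32 relative to theirs. What sets the level of a whole neighbourhood was not tested.

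Of the 905 member loops, 14 had enough read pairs to be tested beside 5369 loops in all. Called higher were 4, all at Hes1, and called lower were 8, at Notch1, Hes5, Dll3 and Dll1, beside 38.1% higher and 22.4% lower of all tested loops. Since a loop needed 20 read pairs, the 4 higher loops were tested through their DP read pairs (2 to 9 in bulk) and several of the lower ones through their bulk read pairs, so these counts say nothing about member loops as a whole. Among the lower loops, that of Notch1 with 26347820-26349854 had a partner seen in no DP loop, so its DP count could only be 0. Dll3 loops called lower were those of the start site anchor with the Timm50 start site (45 bulk and 16 DP read pairs, -1.74 ± 0.45, SE, adjusted p = 0.000346, edgeR) and with the 3′ end of Dll3 (17 bulk and 3 DP, -2.46 ± 0.67, SE, adjusted p = 0.000689, edgeR). The Dll1 loop was just called (-1.22 ± 0.55, SE, adjusted p = 0.0464, edgeR), and the call was lost when 1 of bulk replicates 2, 3, 5, 8 or 9 or of DP replicates 1, 2, 4 or 5 was left out. By library size alone the lower calls fell to 1 and the higher calls were 6, since the median loop moved from 0.78 to 2.99. Of the 791 loops seen in bulk and the 237 seen in DP libraries, 123 were seen in both.

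The median span of member read pairs was 68713 ± 12229 bp (SD, n = 5) in DP and 101427 ± 29872 bp (SD, n = 12) in bulk libraries, p = 0.0293 in a two-sided exact permutation test over 6188 splits. Over all loops the medians were 78849 and 131307 bp (p = 0.000162 in the same exact test, the smallest it can give). The share of member read pairs spanning over 100 kb was 44.5% ± 2.03 (SD, n = 5) and 49.0% ± 6.63 (SD, n = 12), p = 0.167 in the same exact test, and over all loops 44.7% and 55.2% (exact p = 0.000162). The members were not tested against all loops. The direction of both member values turned when each loop was counted once or when shared anchors alone were used. Single members went either way. The median span was shorter in DP cells for Hes1, Dll1 (66444 against 106529 bp), Jag1 and Hey1, and longer for Dll4 (151036 against 37516 bp), Notch1 (146600 against 48297 bp), Notch2 (246729 against 82399 bp), Hes5, Dll3 and Hes6, on counts as low as 7 read pairs.

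Other genes of the pathway were counted from a list of 42, of which 39 could be tested. Called higher were 5 and called lower 18, with 16 not called, and the list's median log2 fold change of -0.54 was next to that of all genes (-0.52). On shared anchors 2 of 34 were called higher and 8 lower, beside 25.7% and 10% of all genes. By library size alone 23 of 39 were higher and 8 lower, beside 55.3% and 26.2% of all genes. The genes higher in DP libraries were Hes7, a HES gene of the somite clock (1.44 ± 0.20, SE, adjusted p = 1.40e-07, edgeR), Psenen, a gamma-secretase subunit (1.55 ± 0.25, adjusted p = 2.88e-06), Poglut1, which puts glucose on the Notch EGF repeats (1.61 ± 0.28, adjusted p = 9.70e-06), Rfng, a Fringe glycosyltransferase (1.20 ± 0.36, adjusted p = 0.00381), and Mib2, a ubiquitin ligase for ligands (0.65 ± 0.28, adjusted p = 0.0449). Psenen and Poglut1 were also called higher on shared anchors.

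Among the genes lower in DP libraries, the 5 with the smallest p included Psen2 and Ncstn, catalytic and structural subunits of gamma-secretase, Rbpj, the DNA-binding factor, and Pofut1, which puts fucose on the receptors. Psen2 had 42 DP and 800 bulk read pairs (-4.14 ± 0.28, SE, adjusted p = 1.54e-14, edgeR), Ncstn 106 and 675 (-2.54 ± 0.22, adjusted p = 8.30e-12), Rbpj 0 and 72 (adjusted p = 1.99e-08) and Pofut1 26 and 192 (-2.66 ± 0.37, adjusted p = 1.95e-07). Psen2 and Ncstn were also called lower on shared anchors, where Pofut1 was not (-1.05, adjusted p = 0.0517). The anchors of Rbpj occur in no DP loop, so its DP count could only be 0 and its p-value adds no support. Rbpj could not be tested on shared anchors, and 7 of the 42 list genes had no DP read pair at all. For those of them that were tested the same limit holds. Psenen and Psen2, subunits of the same enzyme, thus stood on opposite sides of the median gene, at 2.07 and -3.62. On shared anchors their log2 fold changes were 0.65 and -1.83, where the median gene stood at 0.42. Psenen lies at 31.3 Mb of chromosome 7, within 5 Mb of Dll3, of whose neighbours 61.9% were called higher. Psen2, Ncstn and Pofut1 lie at the ends of chromosomes 1 and 2, where most genes were called lower, 92.1% of 496 tested genes beyond 130 Mb of chromosome 1 and 84.6% of 384 beyond 150 Mb of chromosome 2. The neighbours of Psen2 within 5 Mb had a median log2 fold change of -3.99, those of Ncstn -4.45 and those of Pofut1 -2.13. Those of Rbpj had -1.88 over 11 genes. The part of the region in all these calls, higher or lower, was not tested.

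**Figure D5:**
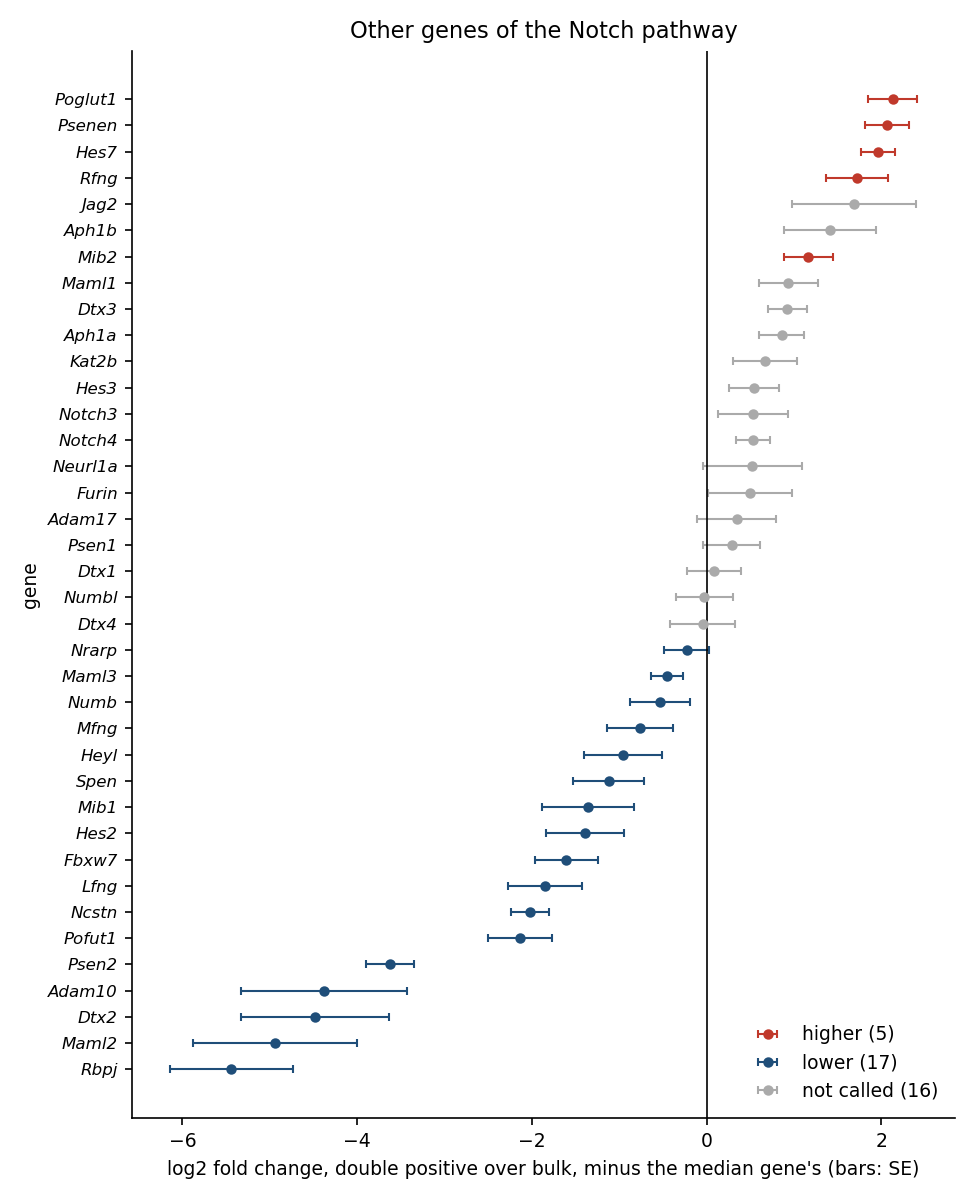
Log2 fold change of DP over bulk libraries minus that of the median gene (x axis, bars of 1 SE) for 38 of the 39 tested genes of the pathway list (y axis), red for the 5 called higher, blue for 17 of the 18 called lower and grey for the 16 not called. The genes called lower reach from Nrarp near the median gene to Rbpj, and fitted values of genes without a DP read pair, such as Rbpj, depend on the prior count.

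The tested genes whose log2(CPM + 1) values ran most like those of each called member over the 17 libraries are given as a description. For Hes1 they were Ifi30 (Pearson r = 0.93) and Mpv17l2 (r = 0.92), for Dll4 Ift46 (r = 0.93) and Ppargc1b (r = 0.91), for Jag1 Cxcr4 (r = 0.93) and Nmnat2 (r = 0.93), for Notch1 Fscn1 (r = 0.90) and 4732471J01Rik (r = 0.89), and for Dll1 Rab1 (r = 0.93) and Nbea (r = 0.93). For Hes5 they were Polr3f and 6330439K17Rik (r = 0.93 for both), for Hes6 Zfp498 and Gm11733 (r = 0.95 for both) and for Hey1 Mdga1 (r = 0.88) and Fam49a (r = 0.85). All genes share these libraries and their depth, and a difference between the 2 groups alone gives a high r.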

How the data were processed

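H3K27ac HiChIP was analysed in 12 bulk and 5 double positive (DP, cluster2) libraries of RA-day 4. The authors aligned reads to mm9 with HiC-Pro and called loops with hichipper; the deposited values are raw counts of read pairs per loop, and loops without read pairs are not in the files, so a count of 0 also stands for an anchor not called. Overlapping anchors were joined (216081 anchors), which dropped 700 read pairs lying within 1 joined anchor. Coordinates are those of the files. Genes are those of GENCODE vM1 (mm9), with the starts of all transcripts of protein-coding genes and a window of 5 kb.

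Gene sums and loops that reached 20 read pairs, found in 5 libraries or more, were tested with edgeR 4.0.16 (TMM, quasi-likelihood test, Benjamini-Hochberg adjustment over all features, adjusted p under 0.05) in R 4.3.3. The fits were tested on simulated data with known fold changes in a small part of the features, as many up as down. Those data held no shift of most features between the groups, so they cannot judge the fits under such a shift. Spans were compared by exact permutation over libraries. Alternatives were DESeq2 1.42.0, library size alone, other filters, shared anchors, thinning to 50508 read pairs, a 2.5 kb window, left-out libraries and a replicate block. All pairs of libraries of a group differed by more than sampling noise in a chi-square test over genes. The excess was small between DP libraries, at 1.09 to 1.21 per degree of freedom over 10 pairs. Between bulk libraries it was 1.68 to 5.81 over 66 pairs. Intervals cover counting error only. Depth ran from 50508 to 241068 read pairs.

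The members and lists were chosen with earlier results of these data known. Named are all 10 members, for each the loop with most read pairs in either group and every loop called, the 5 pathway genes with the smallest p in each direction, and the 2 genes of likest pattern at least 2 Mb away. A pathway gene and a partner sequence that the rule would name are not reported here.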

Additional observations from a re-analysis of the deposited data

Results flagged for a closer look

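In 2 of 12 values checked over the 5 DP libraries, 1 library lay far from the others, where chance gives such a gap in about 1 of 20 groups. DP replicate 2 had 0 read pairs at Jag1, hence 0 CPM, where the other 4 libraries had 1 to 3. DP replicate 5 had 28.8 normalized CPM at Notch1 (7 read pairs), where the other 4 lay between 54.7 and 63.1. Without either library both genes were still called lower.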

How the results depend on the processing

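Leaving out 1 library at a time, members called higher stayed at 2 and lower ran from 6 to 8, pathway genes from 4 to 5 and 18 to 19, and member loops from 4 to 5 and 6 to 8. The difference in median span ran from -37171 to -27370 bp, its exact permutation p passing 0.05 without DP replicate 2 (0.0676) or 5 (0.0527), and that in the share over 100 kb from -5.29 to -3.57 percentage points.

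By library size alone, 2 members were called lower, 23 pathway genes higher and 8 lower, and 1 member loop lower. The log2 fold change turned sign for Dll1 (0.19), Dll3 (1.25), Notch2 (0.83), Hes5 (0.58) and Hey1 (0.45), and for loops of Dll1 (1.01), Hes5 (0.52 and 0.61) and Dll3 (0.53). On shared anchors 1 member was called higher, 2 pathway genes higher and 8 lower, and 5 member loops lower; Notch2 turned to 0.60, the difference in median span to 10997 bp and in the share over 100 kb to 2.88 points. With each loop counted once these were 4429 bp and 6.26 points. Thinning left 1 member higher and 0 member loops lower. A minimum of 50 read pairs left 2 member loops higher and 2 lower of 4 tested, no filter 0 lower, with the Dll1 loop at 0.020, and spans of at least 20 kb 0 lower of 4 tested. The fewer features tested account for part of these counts, and other causes were not tested.

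With a replicate block over replicates 1 to 5, 2 members were called higher and 7 lower, and 5 member loops lower; the paired difference in median span was -20271 bp (exact sign-flip p = 0.125, where 5 pairs allow no p under 0.0625). Same-numbered libraries share only a number: the correlations of their deviations lay between -0.014 and 0.010. The start sites of protein-coding transcripts and replicates 1 to 5 without the block were added after seeing the data. Few read pairs per loop limit every loop result.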
